A study of Mus musculus with 18 samples.

Results

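The leukemia inhibitory factor (LIF) receptor, JAK and STAT3 genes were examined in polysome fractions of mouse embryonic stem cells (ESCs). They are 8 listed genes, Lifr, Il6st, Jak1, Jak2, Stat3, Socs2, Socs3 and Pim1, which were looked up by Ensembl gene identifier among the 51467 genes of the count table. All 8 passed the filter on low counts, as did 12705 genes of the whole table. The list was set by gene name, for a pathway picked with earlier results of these data known. The cells were of the V6.5 line, wild-type (WT) or with a knockout of Ddx6 (Ddx6 KO), which encodes an RNA helicase of translational repression and mRNA decay. Both genotypes were grown in serum with LIF and 2i (PD0325901 and CHIR99021, inhibitors of MEK and GSK3), and ribosomes were stalled with cycloheximide before lysis. Each sucrose gradient gave 3 fractions, the monosome, the low polysome of 2 to 4 ribosomes and the high polysome of 4 or more. With 3 gradients per genotype this gave 18 libraries in 6 groups. Gradient 1 of the KO came from clone 1, and gradients 2 and 3 came from clone 2, so the KO group held 2 clonal lines and clone 1 had no replicate. Nothing in the labels says whether the gradients were separate cultures, so p-values measure the spread between these gradients.

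LIF is the cytokine that holds mouse ESCs in self-renewal. It binds the LIF receptor, which pairs with the shared signal chain gp130, and the pair activates JAK kinases, which phosphorylate the transcription factor STAT3. STAT3 then switches on target genes, among them its own feedback inhibitors of the SOCS family and the PIM1 kinase. Since LIF and 2i were present in all cultures, these data describe the pathway's mRNAs under constant stimulation.

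Each library measured 3′ ends, so a count stands for a transcript end, and levels are given as CPM (counts scaled to library size, with TMM factors between libraries). Total gene counts ranged from 2543617 to 11474550, and the WT monosome libraries were the shallowest at 2543617 to 4894677. Because the TMM scale sets the typical gene to no change, a level is relative to the other mRNAs of the same fraction, and fewer cells of a type and less RNA per cell cannot be told apart. The targeted gene Ddx6 lay between 143 and 212 CPM in the 9 WT libraries and between 9.68 and 82.7 CPM in the 9 KO libraries, and clone 1 held the highest KO value in each fraction. All 10 ESC markers passed the filter, and their summed level was 2210 to 5460 CPM in WT and 2140 to 3740 CPM in KO libraries. Of 8 fibroblast markers 3 passed, at a summed 7.43 to 14.9 CPM in WT and 10.2 to 15.4 CPM in KO, while Col3a1 was at 0 throughout. Summed primitive endoderm markers, of which 2 of 8 passed, were 6.04 to 13.8 CPM in WT and 11.3 to 33.9 CPM in KO. Trophoblast markers, 4 of 7 passing, summed to 106 to 204 CPM in WT and 148 to 262 CPM in KO. Post-implantation epiblast markers, 3 of 7 passing, summed to 106 to 154 CPM in WT and 33.9 to 83.3 CPM in KO, with Fgf5 at 0. On this list Dnmt3b (median 67.4 CPM in WT, 30.1 in KO) and Otx2 (40.5 and 7.39) had the highest WT medians, while Sox3 had 1.19 and 1.45 CPM. The part of these shifts in the results below was not tested.

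To ask whether DDX6 loss changed the association of the LIF pathway mRNAs with ribosomes, the translation level of each gene was taken as high polysome over monosome. Its change in the KO was the interaction term, KO ratio less WT ratio on the log2 scale. Stat3 and Jak1 rose in translation level by 1.26 and 1.08, and the other 6 genes, at -0.55 to 0.54, did not pass the test. Calls were made with limma, at p under 0.05 after Benjamini-Hochberg adjustment across the whole table. Of all genes tested, 10.7% of genes were called higher in this comparison and 7.09% lower. The median of the 8 genes was 0.18, against 0.022 for all genes tested. With library size alone in place of TMM the median of all genes moved from 0.022 to -0.102 and the calls from 1357 higher and 901 lower to 936 higher and 1386 lower, while Stat3 and Jak1 stayed called. For low polysome over monosome, 0 of the 8 genes were called by limma, beside 2.31% of all genes higher and 2.39% lower. None of the 8 had an unadjusted p under 0.05 in limma, where 2635 of all 12705 genes did in either direction. EdgeR and DESeq2 also called 0. The plot of levels by library shows all 8 genes.

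**Figure D1:**
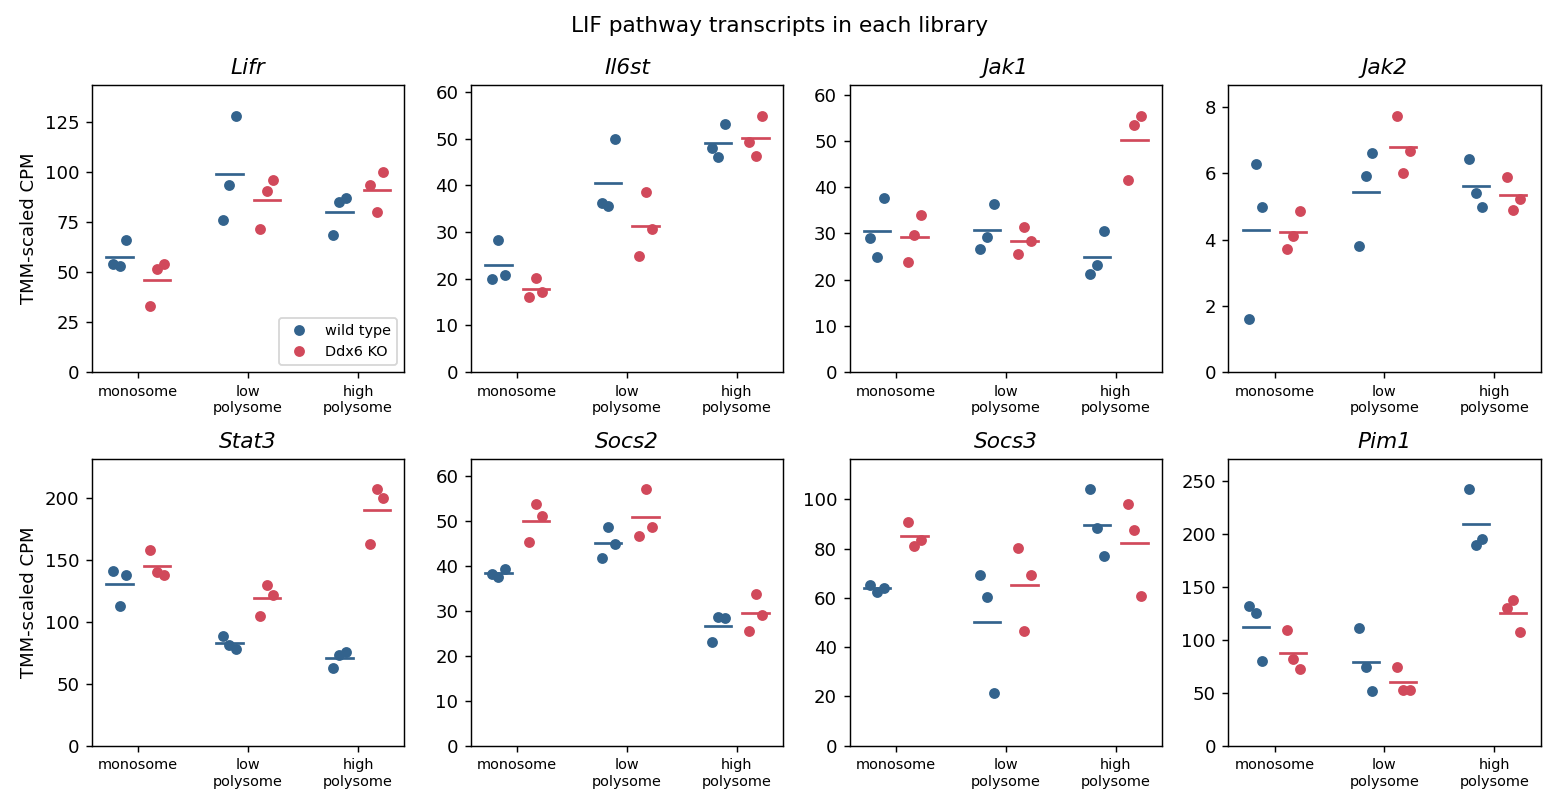
Level of each LIF pathway gene in TMM-scaled CPM (y axis, from 0, own scale per gene) in the 3 fractions of 3 WT (blue) and 3 Ddx6 KO (red) gradients. Points are libraries and lines are group means. In the high polysome the Stat3 and Jak1 points of the KO lie above those of the WT, and the Pim1 points lie below.

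Stat3 encodes the transcription factor at the centre of the pathway. The gene (ENSMUSG00000004040.16) lies on the minus strand of chromosome 11 from 100885098 to 100939540 (GRCm38). In WT monosomes its level was 141, 113 and 138 CPM in gradients 1 to 3, in low polysomes 88.7, 81.1 and 78.3 CPM, and in high polysomes 62.6, 73.4 and 75.5 CPM. So the WT Stat3 level, relative to the other mRNAs of each fraction, fell toward the heavier fractions. No high polysome library reached a monosome library. The KO monosomes held 158, 140 and 138 CPM, the low polysomes 105, 130 and 122 CPM, and the high polysomes 163, 207 and 200 CPM. There the high polysome was on top, while the low polysome still lay below the monosome.

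In WT the log2 ratio of Stat3 was -0.88 (SE 0.13, adjusted p = 1.01e-05, limma) for high polysome over monosome and -0.65 (SE 0.13, adjusted p = 0.000574) for low polysome over monosome. In the KO the high polysome ratio was 0.38 (SE 0.13, adjusted p = 0.0117) and the low polysome ratio was -0.29 (SE 0.13, adjusted p = 0.0713). The KO value of 0.38 lost its call without KO gradient 2 (0.29), without KO gradient 3 (0.33) and after the trend on coding length was removed (0.10). The difference between genotypes was firmer than that value. High polysome over monosome changed by 1.26 (SE 0.19, adjusted p = 0.00026), a 2.39-fold rise in translation level. It stayed called in all 14 alternatives, at 0.92 to 1.42. For single gradients the log2 ratio was -1.16, -0.62 and -0.87 in WT and 0.05, 0.56 and 0.53 in the KO, with no overlap. Here and below, the share of all genes without overlap was not counted. The clone 1 gradient was the lowest of the KO, and without it the change was 1.42.

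Within fractions, KO less WT was largest for Stat3 in the high polysome, at 1.43 (SE 0.13, adjusted p = 3.45e-08, limma) or 2.69-fold. It was 0.52 in low polysomes (SE 0.13, adjusted p = 0.0027), and in monosomes it was 0.17 (SE 0.13, adjusted p = 0.338). Averaged over the 3 fractions of a gradient, Stat3 was 0.70 higher in the KO on the log2 scale (SE 0.08, adjusted p = 1.41e-05, limma), or 1.63-fold. The fractions leave out free mRNA, so this mean is not the total mRNA of the cell. Set by their means, the groups ran from the KO high polysome (190 ± 23.6 CPM, SD, n = 3) through KO monosome (146 ± 10.9), WT monosome (130 ± 15.3), KO low polysome (119 ± 12.8) and WT low polysome (82.7 ± 5.40) to the WT high polysome (70.5 ± 6.92). The ranges of KO monosome and WT monosome overlapped, as did those of WT monosome and KO low polysome, and the other neighbours did not.

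**Figure D2:**
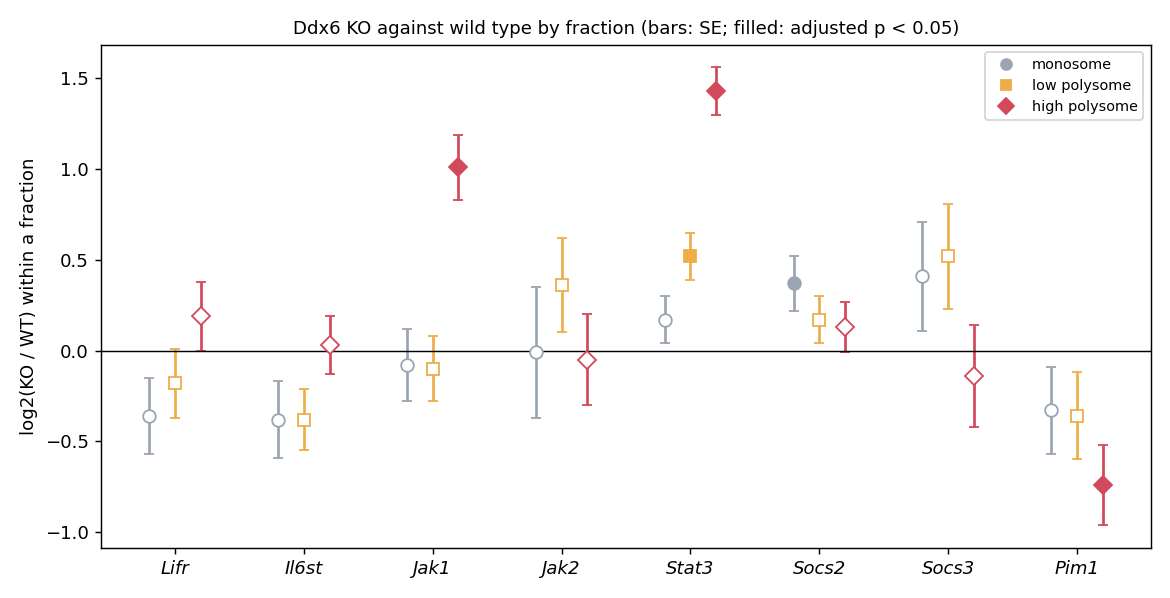
Log2 difference in level between Ddx6 KO and WT (y axis) for the 8 genes, with 3 gradients per genotype. Fractions are the monosome (grey circles), low polysome (yellow squares) and high polysome (red diamonds). Bars are SE from limma fitted to all 18 libraries, so they draw on the spread in all 6 groups. Filled symbols passed an adjusted p of 0.05: the high polysome for Stat3 (1.43), Jak1 (1.01) and Pim1 (-0.74), the low polysome for Stat3 (0.52) and the monosome for Socs2 (0.37).

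DDX6 has been studied as an effector of miRNAs, and the main miRNAs of ESCs share one seed, so the annotated 3′ UTRs (Gencode M21, the longest of each gene) were searched for its match. The mature sequences, from RefSeq on GRCm38.p6, are shown with the seed, bases 2 to 8, in capitals.
mmu-miR-291a-3p: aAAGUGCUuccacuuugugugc
mmu-miR-294-3p: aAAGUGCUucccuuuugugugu
mmu-miR-295-3p: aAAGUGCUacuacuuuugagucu
The core of the match is the hexamer GCACTT, the complement of seed bases 2 to 7. On the transcript strand it was found in 33.0% of the 11750 tested genes with an annotated 3′ UTR, and in 4 of the 8 LIF genes. Longer UTRs hold any hexamer more often, and the UTRs of these 8 genes ran from 1128 to 6320 bases. Stat3 held 2 matches, at base 251 and base 498 of a UTR of 3701 bases, shown with the hexamer in capitals.
Stat3 chr11:100888533-100888558, minus strand: ggcaatctggGCACTTtttaaaatag
Stat3 chr11:100888286-100888311, minus strand: tcctggctctGCACTTtcaaccttgc
Neither was extended to a 7mer, AGCACTT or GCACTTA, which 17.4% and 8.06% of the UTRs held. The 8mer AGCACTTA, held by 3.50% of UTRs, was in none of the 8 genes. A match is a description of letters and was not tested as a site.

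Jak1 encodes the kinase most closely tied to gp130 signalling. It lies on the minus strand of chromosome 4 from 101152367 to 101265282 (ENSMUSG00000028530.14). The level was 29.1, 24.9 and 37.7 CPM in WT monosomes, 26.6, 29.2 and 36.3 CPM in WT low polysomes and 21.2, 23.1 and 30.5 CPM in WT high polysomes. KO monosomes gave 23.9, 29.7 and 33.9 CPM and KO low polysomes 25.5, 31.4 and 28.4 CPM. In these lighter fractions the 2 genotypes overlapped. KO high polysomes held 41.6, 53.5 and 55.5 CPM, above all other Jak1 values.

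Jak1 thus differed between genotypes in the high polysome, by 1.01 on the log2 scale (SE 0.18, adjusted p = 0.000103, limma) or 2.01-fold. The differences in the monosome, -0.08 (SE 0.20), and in the low polysome, -0.10 (SE 0.18), had adjusted p of 0.801 and 0.674. Translation level changed by 1.08 (SE 0.27, adjusted p = 0.00983). Single gradients gave log2 ratios of -0.45, -0.10 and -0.30 in WT and 0.79, 0.84 and 0.71 in the KO. They did not overlap, and clone 1 lay between the gradients of clone 2. The call was lost without WT gradient 1, whose monosome library was the shallowest (0.92, adjusted p = 0.0641), and with the trend of each library on coding length removed (0.61, adjusted p = 0.118). The coding sequence of Jak1, 3462 bases, was the longest of the 8. The high polysome difference itself stayed called in all 14 alternatives, at 0.69 to 1.17. The mean over fractions was 0.28 higher in the KO (SE 0.14, adjusted p = 0.0987).

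The 3′ UTR of Jak1 had 1 match to the seed hexamer, at base 1085 of 1128, in capitals below.
Jak1 chr4:101152395-101152420, minus strand: cgctctatatGCACTTtgtttactct

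Jak2, a second kinase that binds gp130, was the most weakly counted of the 8 genes. It lies on the plus strand of chromosome 19 from 29251828 to 29313080 (ENSMUSG00000024789.12). Its libraries held 4 to 76 reads, and 17 of 18 reached 3 CPM. WT monosomes gave 1.59, 6.27 and 4.97 CPM, where the first rests on 4 reads, and KO monosomes gave 3.70, 4.11 and 4.87 CPM. Low polysomes ranged from 3.80 to 6.60 CPM in WT and from 6.0 to 7.74 CPM in the KO, and high polysomes from 4.99 to 6.42 CPM in WT and 4.89 to 5.90 CPM in the KO. The genotypes overlapped in every fraction. Translation level differed by -0.04 (SE 0.44, adjusted p = 0.959, limma), and its sign turned between alternatives, so a change of the size seen for Jak1 would be 2 to 3 SE for Jak2 and hard to detect at this depth. The KO low polysome over monosome ratio was 0.68 (SE 0.27, adjusted p = 0.0516), and 0.0484 with each gradient as a block.

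**Figure D3:**
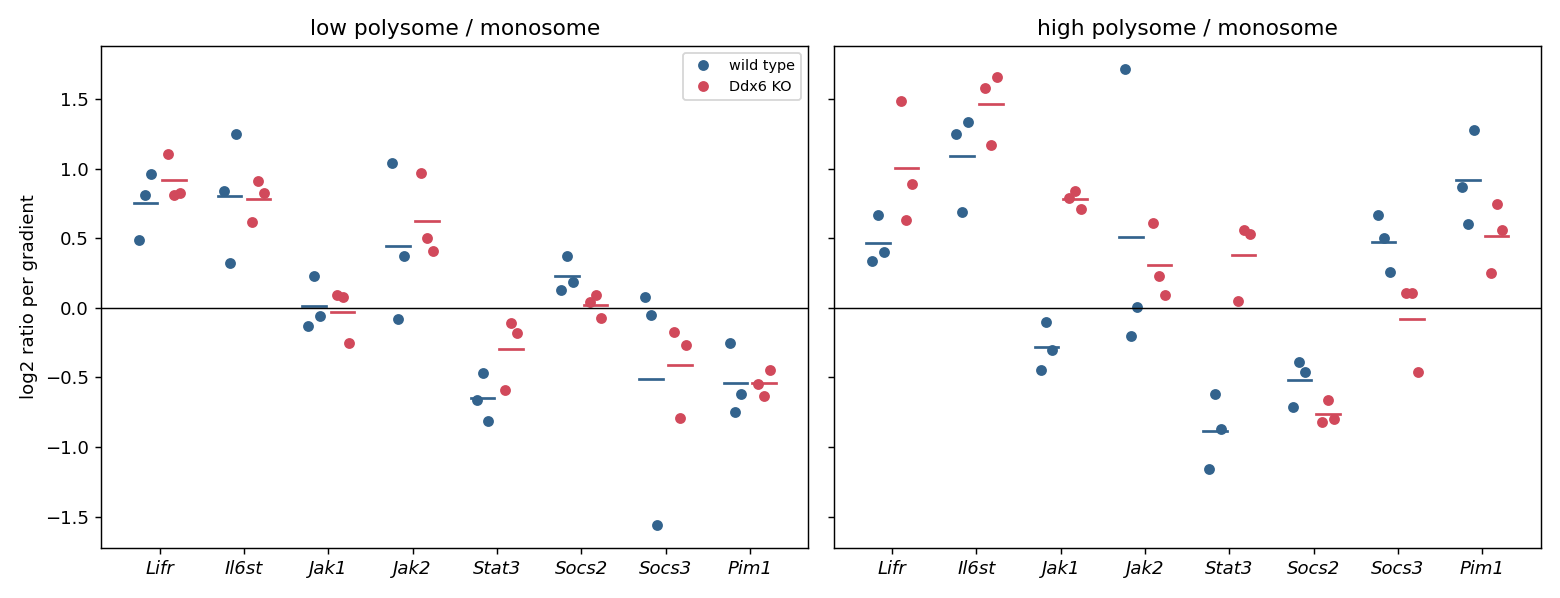
Log2 ratio of low polysome to monosome (left) and high polysome to monosome (right) in each gradient, for the 8 genes in WT (blue) and Ddx6 KO (red), from CPM with 0.5 CPM added. Points are gradients and lines are means. On the right the KO gradients of Jak1 (0.71 to 0.84) and Stat3 (0.05 to 0.56) lie above the WT gradients, and those of Socs3 (-0.46 to 0.11) lie below (0.26 to 0.67 in WT). On the left the KO gradients of Socs2 (-0.07 to 0.09) lie below those of WT (0.13 to 0.37).

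The receptor chains had a different pattern. Relative to the other mRNAs of each fraction, their levels were higher in polysomes than in monosomes in both genotypes. Lifr, the LIF-binding chain, lies on chromosome 15 from 7090614 to 7197489, plus strand (ENSMUSG00000054263.11). It gave 53.8, 53.0 and 65.7 CPM in WT monosomes, 75.8, 93.2 and 128 CPM in low polysomes and 68.4, 84.7 and 86.8 CPM in high polysomes. The KO gave 32.9, 51.4 and 54.0 CPM in monosomes, 71.5, 90.2 and 96.1 CPM in low polysomes and 93.2, 79.9 and 100 CPM in high polysomes. In both genotypes every monosome value was below every polysome value of the same genotype. Low polysome over monosome was 0.75 (SE 0.21, adjusted p = 0.00618, limma) in WT and 0.92 (SE 0.20, adjusted p = 0.000887) in the KO. High polysome over monosome was 0.47 (SE 0.21, adjusted p = 0.0572) in WT, which became 0.49 with adjusted p = 0.0121 once gradients were a block, and 1.01 (SE 0.20, adjusted p = 0.000119) in the KO. The WT low polysome call was lost without WT gradient 2 (0.71, adjusted p = 0.0555).

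Between genotypes Lifr differed by -0.36, -0.18 and 0.19 from the lightest to the heaviest fraction, with adjusted p of 0.2 to 0.453 and overlapping libraries. Its translation level changed by 0.54 (SE 0.28, adjusted p = 0.19), which became 0.09 with the coding length trend removed and 0.30 without KO gradient 1. In the single gradients, log2 high polysome over monosome was 0.34, 0.67 and 0.40 in WT and 1.49, 0.63 and 0.89 in the KO, the highest being clone 1.

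Il6st encodes gp130, the chain shared by the IL-6 family of cytokines. Its gene is on chromosome 13 from 112464070 to 112510086, plus strand (ENSMUSG00000021756.12). WT levels were 19.9, 28.3 and 20.7 CPM in monosomes, 36.1, 35.5 and 50.0 CPM in low polysomes and 48.0, 46.1 and 53.1 CPM in high polysomes. KO levels were 16.1, 20.2 and 17.1 CPM, then 24.9, 38.5 and 30.7 CPM, then 49.2, 46.2 and 54.9 CPM in the same order of fractions. High polysome levels were nearly the same in both genotypes, and the lowest values of each genotype were monosomes. Il6st had the highest high polysome over monosome ratio of the 8 genes, 1.09 in WT (SE 0.19, adjusted p = 6.18e-05, limma) and 1.49 in the KO (SE 0.18, adjusted p = 2.91e-07). Low polysome over monosome was 0.80 in both, with adjusted p of 0.00271 in WT and 0.00174 in the KO. The WT low polysome call was lost without WT gradient 3 (0.54, adjusted p = 0.0851).

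KO monosomes had less Il6st than WT monosomes by a log2 value of -0.38 that did not pass (SE 0.21, adjusted p = 0.167), as did low polysomes (-0.38, SE 0.17, adjusted p = 0.0687). In high polysomes it was 0.03 (SE 0.16, adjusted p = 0.892). Translation level changed by 0.41 (SE 0.26, adjusted p = 0.293), which became 0.01 with the coding length trend removed and 0.19 without WT gradient 2. The mean over fractions was -0.23 (SE 0.11, adjusted p = 0.0841). It was called lower with edgeR (-0.28, adjusted p = 0.0482), with summed counts (-0.28, adjusted p = 0.0467), with the coding length trend removed (-0.28, adjusted p = 0.0258) and without WT gradient 1 (-0.31, adjusted p = 0.0344). The low polysome difference was likewise called with that trend removed (-0.38, adjusted p = 0.047) and without KO gradient 2 (-0.52, adjusted p = 0.0251). These values, and those of Lifr, do not show that the receptors were unaffected, since the SE of 0.26 to 0.28 leaves room for changes of moderate size.

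The receptor UTRs were the longest of the 8, 6320 bases for Lifr and 5641 bases for Il6st, and they held the 7mers that Stat3 and Jak1 lacked. Lifr had 1 hexamer, extended to GCACTTA. Il6st had 3, of which 1 was extended to AGCACTT and 1 to GCACTTA. The 7mers are in capitals.
Lifr chr15:7194713-7194739, plus strand: tactgcttagGCACTTActcagataga
Il6st chr13:112505280-112505306, plus strand: tggttgaggaAGCACTTtatccagaat
Il6st chr13:112505980-112506006, plus strand: gagttgatatGCACTTAgttggatgca

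Among the negative regulators, Socs3 encodes the inhibitor that binds gp130 and JAK and is induced by STAT3 itself. The gene lies on chromosome 11 from 117966079 to 117970047, minus strand (ENSMUSG00000053113.3). It gave 65.3, 62.5 and 64.2 CPM in WT monosomes and 90.6, 81.0 and 83.5 CPM in KO monosomes, with no overlap. In low polysomes it gave 69.1, 60.3 and 21.4 CPM in WT and 80.3, 46.5 and 69.2 CPM in the KO. The low value of WT gradient 3 stood far from its group mates, and that library also stood furthest from its group over all genes, with a median absolute log2 difference of 0.272 where libraries ranged from 0.15. KO low polysome gradient 2, with the lowest Socs3 level of its group, was the next at 0.264. High polysomes held 104, 88.3 and 76.8 CPM in WT and 98.1, 87.6 and 60.8 CPM in the KO, which overlapped.

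The monosome difference of Socs3 was 0.41 (SE 0.30, adjusted p = 0.301, limma), the low polysome difference 0.52 (SE 0.29, adjusted p = 0.155) and the high polysome difference -0.14 (SE 0.28, adjusted p = 0.692). Translation level changed by -0.55 (SE 0.41, adjusted p = 0.365). Single gradients gave 0.67, 0.50 and 0.26 in WT and 0.11, 0.11 and -0.46 in the KO. They did not overlap, but the test did not call the change, and how many of all genes separate in this way was not counted. When only the 4 groups of that comparison were fitted, which left the 2 low polysome groups out of the spread, the change was -0.64 with adjusted p = 0.0355. Likewise, with only the 2 monosome groups fitted, the monosome difference was called, at 0.43 with adjusted p = 0.00857. The low polysome difference rested on the low WT gradient 3, since without it the value was -0.02. Without WT gradient 1 it was 0.85 with adjusted p = 0.0381.

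STAT factors bind palindromes of the form TTCNNNGAA, so RefSeq promoter windows (250 bases before to 50 after a start, GRCm38.p6) were searched for that letter pattern, which reads the same on both strands. It was in 8.30% of 32851 windows. Windows were found for 7 of the 8 genes, all but Socs2, and among them Socs3 alone held a match, centred 150 bases before its RefSeq start. The Gencode span given above starts further upstream with a noncoding transcript, so the match lies within that span. The match is in capitals.
Socs3 chr11:117969502-117969530, minus strand: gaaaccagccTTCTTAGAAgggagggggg
The stricter form TTCCNGGAA, in 1.15% of windows, was in none of the windows of these 7 genes. Sequence outside the windows was not searched, so either form may lie there.

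Socs2 encodes a second feedback inhibitor, better known for restraining growth hormone signalling. It lies on chromosome 10 from 95385362 to 95417180, minus strand (ENSMUSG00000020027.18). Its levels varied little within groups, at 38.2, 37.6 and 39.4 CPM in WT monosomes, 41.8, 48.7 and 44.9 CPM in low polysomes and 23.1, 28.6 and 28.5 CPM in high polysomes. The KO gave 45.3, 53.7 and 51.0 CPM, then 46.7, 57.0 and 48.7 CPM, then 25.5, 33.7 and 29.1 CPM. In both genotypes the high polysome was the lowest fraction, without overlap with the others. High polysome over monosome was -0.52 in WT (SE 0.15, adjusted p = 0.0052, limma) and -0.77 in the KO (SE 0.13, adjusted p = 3.97e-05). The WT call was lost without WT gradient 1 (-0.37, adjusted p = 0.0851) and the KO call with the coding length trend removed (-0.22, adjusted p = 0.199). With 597 bases, Socs2 has the shortest coding sequence of the 8. In the monosome Socs2 rose by 0.37 in the KO (SE 0.15, adjusted p = 0.049), a call close to the threshold. It was lost in 7 of 14 alternatives, 5 of them the loss of a single gradient (any of WT 1 to 3 or KO 2 and 3, at 0.32 to 0.39). Translation level changed by -0.25 (SE 0.20, adjusted p = 0.419). In single gradients log2 low polysome over monosome was 0.13, 0.37 and 0.19 in WT and 0.04, 0.09 and -0.07 in the KO, without overlap. That change of -0.21 was not called (SE 0.20, adjusted p = 0.6, limma).

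Pim1 encodes a serine/threonine kinase induced by STAT3, and it was the one gene of the 8 called lower in the KO by limma, in the high polysome and in the mean over fractions. It lies on chromosome 17 from 29490753 to 29496112, plus strand (ENSMUSG00000024014.7). WT monosomes gave 132, 125 and 79.8 CPM, low polysomes 111, 74.1 and 51.8 CPM and high polysomes 242, 190 and 195 CPM. KO monosomes gave 109, 81.6 and 72.3 CPM, low polysomes 74.0, 52.6 and 52.7 CPM and high polysomes 130, 138 and 107 CPM. The 3 KO high polysomes were below the 3 WT high polysomes, and the other fractions overlapped. In the high polysome the difference was -0.74 (SE 0.22, adjusted p = 0.00988, limma), or 0.599-fold, and it stayed called in all 14 alternatives at -0.82 to -0.66. Monosome (-0.33, SE 0.24, adjusted p = 0.289) and low polysome (-0.36, SE 0.24, adjusted p = 0.222) leaned the same way without a call, until WT gradient 3, the lowest of its group in both, was left out (-0.57, adjusted p = 0.0488, and -0.63, adjusted p = 0.0217).

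The mean over fractions of Pim1 was -0.48 in the KO (SE 0.16, adjusted p = 0.0192, limma). That call was lost without WT gradient 1 (-0.32) or 2 (-0.47) or KO gradient 2 (-0.46) or 3 (-0.39), with adjusted p of 0.0534 to 0.0728. Translation level changed by -0.41 (SE 0.32, adjusted p = 0.395), so the fall was not shown to be larger in one fraction than in another. Relative to the other mRNAs of each fraction, Pim1 was higher in high polysomes than in monosomes in both genotypes. The log2 ratio was 0.94 (SE 0.23, adjusted p = 0.00155, limma) in WT and 0.53 (SE 0.23, adjusted p = 0.0454) in the KO. The KO call was lost in 6 of 11 alternatives, among them without KO gradient 2 (0.41) or 3 (0.53). Low polysome over monosome was -0.52 (adjusted p = 0.0832) in WT and -0.55 (adjusted p = 0.0644) in the KO, and with gradients as a block -0.54 (adjusted p = 0.00986) and -0.55 (adjusted p = 0.00905). The low polysome was thus the lowest fraction for Pim1 by its group means, 78.9 ± 29.9 CPM in WT and 59.8 ± 12.3 CPM in the KO (SD, n = 3).

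Short-lived mRNAs of cytokine responses often carry AU-rich elements. Among the 8 genes, their heptamer fell in the members without the seed hexamer. The heptamer TATTTAT was in 29.8% of the 3′ UTRs searched. It was absent from Lifr, Il6st, Jak1 and Stat3, and present once in Jak2, once in Socs2, at 2 overlapping positions in Socs3 and at 4 in Pim1. The nonamer TTATTTATT, in 8.14% of UTRs, was among the 8 genes in Pim1 alone, at 3 overlapping positions of a single run of repeats. The middle nonamer of Pim1 and a heptamer of Socs3 are in capitals.
Pim1 chr17:29495693-29495721, plus strand: atgtatttatTTATTTATTtatttggttg
Socs3 chr11:117966134-117966160, minus strand: catatatttaTATTTATactcagaaaa
Thus the 4 genes with the seed hexamer were Lifr, Il6st, Jak1 and Stat3, and the 4 with the AU-rich heptamer were the other members. Both called rises in translation level, of Stat3 and Jak1, were in the first group, which also held Lifr and Il6st at 0.54 and 0.41 without a call. All 4 genes of the second group had values below 0, from -0.55 to -0.04, none of them called. This split by sign did not hold in every alternative. Jak2 was at 0.05 with edgeR, 0.07 with the replicate block and 0.37 without WT gradient 1. With the coding length trend removed Socs2 was at 0.17, while Lifr and Il6st were at 0.09 and 0.01. The 2 groups also differed in coding length. It was 2313 to 3462 bases in the first group and 597 to 942 bases in Socs2, Socs3 and Pim1, while Jak2 had 3399. With 8 genes grouped after their values were known, the split is a description with no test.

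Counted over the 8 genes, KO less WT in the high polysome gave 2 higher and 1 lower, beside 25.3% and 21.1% of all genes. In the low polysome 1 was higher and 0 lower (23.4% and 24.3% of all genes), and in the monosome likewise 1 was higher and 0 lower (18.6% and 20.1%). For the mean over fractions 1 was higher and 1 lower, beside 28.5% of all genes in each direction. Within WT 2 genes were higher and 2 lower in high polysome over monosome (28.9% and 32.2% of all genes), and 2 higher and 1 lower in low polysome over monosome (20.4% and 22.8%). In the KO 5 were higher and 1 lower in the high polysome ratio (35.0% and 33.6%), and 2 higher and 0 lower in the low polysome ratio (20.4% and 20.8%). The 3 counts of 0 were also 0 by edgeR and by DESeq2. At an unadjusted p under 0.05 in limma, 0 genes were lower in the monosome, 1 in the low polysome (Il6st) and 2 in the KO low polysome ratio (Stat3 and Pim1). Of all 12705 genes, 5985, 6880 and 6254 passed that cut in these 3 comparisons, in either direction. Most shares were near or below the background.

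The other genes of the pathway were taken from 5 lists of 72 genes, of which 61 passed the filter. In translation level 5 rose and 0 fell by limma, beside 10.7% and 7.09% of all genes. At an unadjusted p under 0.05 in limma 10 were higher and 3 lower, where 4179 of all 12705 genes passed in either direction. EdgeR also called 5 higher and 0 lower, and DESeq2 4 and 0. Their median was 0.11. In the mean over fractions 25 were higher and 15 lower, beside 28.5% of all genes in each direction.

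Of 6 tested ligands and receptors, 0 changed in translation level by limma, edgeR or DESeq2. Over all genes, limma called 10.7% higher and 7.09% lower. At an unadjusted p under 0.05 in limma the list had 0 genes, where 4179 of all 12705 genes passed in either direction. Il11ra1, the receptor for IL-11, a cytokine that also signals through gp130, was higher in the KO by 0.95 in the mean over fractions (SE 0.12, adjusted p = 1.88e-05, limma), with 12.2 to 17.1 CPM in WT monosomes and 26.0 to 39.8 CPM in KO monosomes. Il6ra, the IL-6 receptor, was lower (-0.47, SE 0.13, adjusted p = 0.00787). Lif itself passed the filter and gave 0.11 (SE 0.27, adjusted p = 0.739). Il6, Il11, Osmr, Cntf, Cntfr and Il31ra had 0 to 17 counts in any library and were not tested.

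Among 8 tested kinases and STATs, 1 rose in translation level and 0 fell by limma, beside 10.7% and 7.09% of all genes. It was Stat2, a factor of interferon signalling, which rose by 1.0 (SE 0.27, adjusted p = 0.014, limma). Its monosome and low polysome means were lower in the KO, 30.6 against 41.8 CPM and 15.4 against 27.1 CPM, and its high polysome mean higher, 17.8 ± 5.52 against 11.8 ± 1.99 CPM. In the mean over fractions, where 28.5% of all genes were called in each direction, 4 genes of this list were higher, among them Stat5a by 0.55, Stat6 by 0.47 and Stat5b by 0.33, with adjusted p of 0.00233 to 0.0479 for these 3. Pim3, a relative of Pim1, was the one called lower, at -0.29 (SE 0.11, adjusted p = 0.0353). The remaining JAK family members did not pass, with Jak3 at 0.51 (adjusted p = 0.291) and Tyk2 at 0.20 (adjusted p = 0.663) in translation level.

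Of 15 inhibitors and phosphatases, 2 rose in translation level by limma, 2 by edgeR and 1 by DESeq2, and 0 fell. Over all genes, limma called 10.7% higher and 7.09% lower. In limma, Ptpn6, the phosphatase SHP-1 that dampens JAK signalling, rose by 0.97 (SE 0.27, adjusted p = 0.0188). Pias1, an inhibitor of activated STAT, rose by 0.60 (SE 0.19, adjusted p = 0.034, limma). In KO high polysomes Ptpn6 reached 27.3 to 34.3 CPM where WT had 12.8 to 15.4 CPM. Over the mean of fractions, beside the same 28.5% of all genes in each direction, 5 genes of this list were higher, among them Ptpn6 (0.70), Pias3 (0.46), Socs5 (0.41) and Pias1 (0.38), and 4 were lower, Pias2 (-0.67), Socs6 (-0.55), Sh2b3 (-0.53) and Ptpn2 (-0.44). Members of the PIAS and SOCS families thus lay on both sides.

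The adaptors and the MAPK and PI3K branches had 0 of 16 genes called in translation level by limma, edgeR or DESeq2. Over all genes, limma called 10.7% higher and 7.09% lower. At an unadjusted p under 0.05 in limma 2 were higher and 2 lower, where 4179 of all 12705 genes passed in either direction. In the mean over fractions 6 were higher and 3 lower (28.5% of all genes in each direction). The adaptor Gab1 (0.66) and the kinase Mapk3 (0.59) were among the higher ones, while Hras (-0.64) and the PI3K subunits Pik3ca (-0.54) and Pik3r1 (-0.42) were lower. The adjusted p of these 5 ran from 4.16e-05 to 0.0434 in limma.

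Of the STAT3 target list, 16 of 18 genes were tested, and Myc and Egr1, with at most 3 and 11 counts in a library, were not. Translation level rose for 2 genes of this list and fell for 0 by limma, beside 10.7% and 7.09% of all genes. The 2 were Tbx3 and Tfcp2l1, both transcription factors of naive pluripotency. Tbx3 rose by 1.37 (SE 0.15, adjusted p = 2.81e-05, limma), from 143 to 170 CPM in WT high polysomes to 445 to 483 CPM in the KO. Tfcp2l1 rose by 0.55 (SE 0.17, adjusted p = 0.0272), yet its KO level was lower in monosomes (169 to 191 against 311 to 385 CPM) and in high polysomes (708 to 730 against 845 to 1060 CPM). For low polysome over monosome, 3 of these 61 pathway genes were called higher and 0 lower by limma. The counts were 3 and 0 by edgeR and 4 and 0 by DESeq2. Over all genes 2.31% were called higher and 2.39% lower in limma. At an unadjusted p under 0.05 in limma 13 were higher and 2 lower, where 2635 of all 12705 genes passed in either direction. The 3 called by limma were Tbx3 (0.77), Tfcp2l1 (0.68) and Esrrb (0.54), the last named because the count was small.

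In the mean over fractions 9 STAT3 target genes were higher and 6 lower, beside 28.5% of all genes in each direction, with a median of 0.37 against -0.017 for all genes. Junb, an AP-1 subunit, rose most, by 1.70 (SE 0.11, adjusted p = 9.94e-08, limma), from 8.36 to 9.74 CPM in WT monosomes to 29.3 to 37.8 CPM in the KO. Its AP-1 partner Fos rose by 1.06 (SE 0.19, adjusted p = 0.000323, limma), Tbx3 by 0.93 and Zfp36, which encodes a protein that binds AU-rich elements, by 0.56. The level of Fos was low, at 2.07 to 4.41 CPM in WT and 3.32 to 4.62 CPM in KO monosomes. In low polysomes Fos had 0.49 to 1.41 CPM in WT and 3.54 to 5.35 CPM in the KO. Pramel7, a naive ESC gene, fell most (-3.70, SE 0.29, adjusted p = 3.26e-07), from 25.8 to 29.6 CPM in WT monosomes to 1.15 to 3.45 CPM in the KO. Gbx2 (-0.73), Sall4 (-0.55) and the survival gene Mcl1 (-0.53) were also lower. The level of Gbx2 was low too, at 0.796 to 2.09 CPM in WT and 0.725 to 2.30 CPM in KO monosomes. STAT3 targets thus moved in both directions, and many of them answer to other inputs as well. The plot of the lists shows all tested genes.

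**Figure D4:**
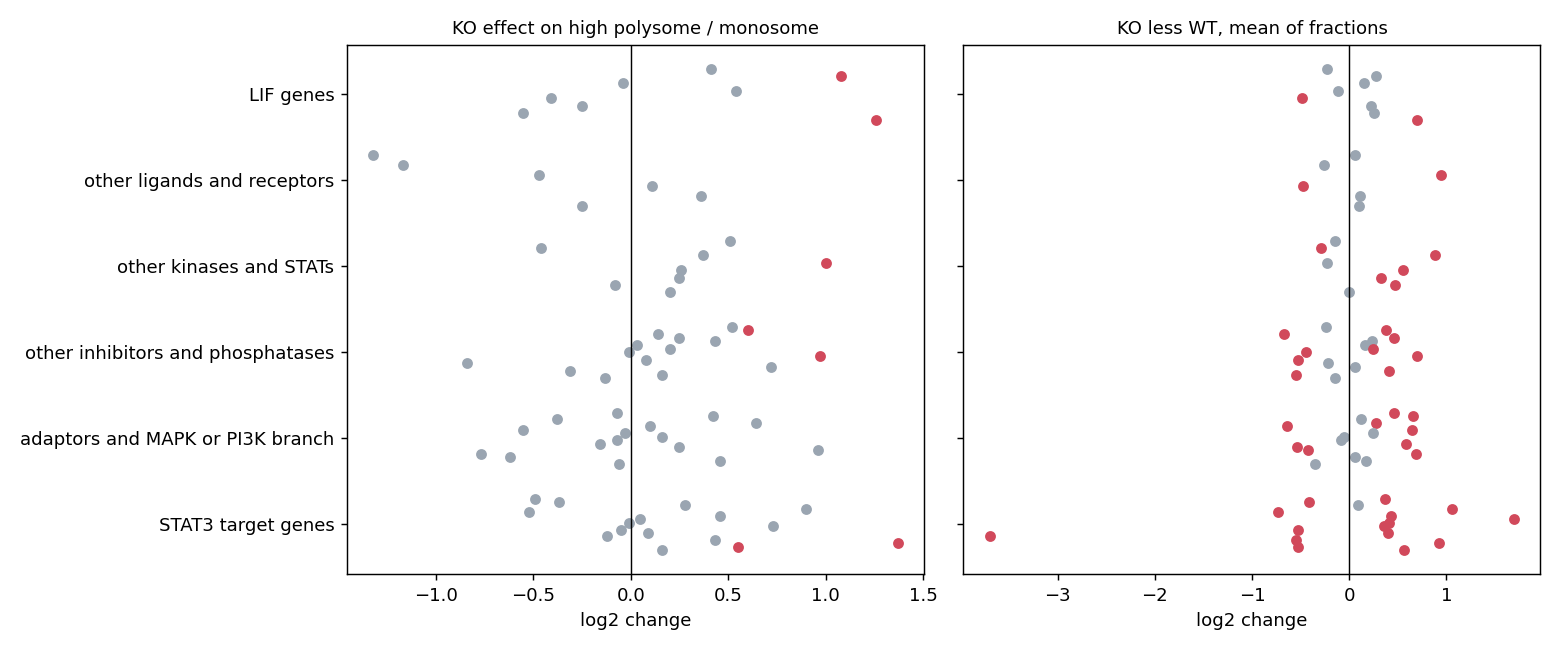
Log2 change (x axis) of each tested gene of the LIF gene list and 5 further pathway lists (rows) for the KO effect on high polysome over monosome (left) and the KO less WT mean over fractions (right). Each point is a gene, red where it passed an adjusted p of 0.05 in limma and grey where it did not. On the left the called points, 2 LIF genes and 5 of 61 others, are all above 0, and on the right 25 of the 61 others are called higher and 15 lower.

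To see which profiles over the libraries were most alike, log2 CPM of each gene was correlated with that of every other gene over the 18 libraries. The libraries share gradients and genotypes, so r is a description. Nearest to Stat3 were Nt5dc3 (r = 0.957) and Casz1 (0.944), and Lig3 (0.895) was among the 2 nearest to Jak1. Lifr was most like Wdr26 (0.964) and Birc6 (0.948), and Il6st most like Asph (0.978) and Cpd (0.957). The profile of Jak2 came closest to Usp32 (0.880) and St7l (0.831), that of Socs2 to Epp13 (0.938) and Ifitm1 (0.935), that of Socs3 to Ccn1 (0.950) and Trip10 (0.936), and that of Pim1 to Mcam (0.932) and Cnn3 (0.917). Within the list the highest values were 0.809 for Lifr with Il6st, 0.671 for Stat3 with Jak1 and 0.603 for Socs3 with Pim1, while Socs2 had no member above 0.148.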

How the data were processed

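Polysome libraries were made by the authors with the QuantSeq 3′ FWD kit. Per the labels, reads were trimmed with cutadapt 1.14, aligned with STAR 2.5.3a to mm10 (unique alignments only) and counted by strand with featureCounts 1.5.3 on Gencode M14 without rRNA, and the deposited table holds raw counts per gene. No molecular identifiers are named, so PCR copies are among the counts. Unique alignment undercounts genes with near-identical copies. Of the 8 genes, Jak1, Stat3 and Pim1 overlap genes on the opposite strand, which strand-specific counting keeps apart, and Jak1 also spans a pseudogene on its own strand. The 92 spike-in rows, 28 to 169 counts a library, were left out.

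Coordinates and UTRs came from Gencode M21 (GRCm38), which matched 51274 of the identifiers and not 193. Genes with at least 3 CPM in at least 3 libraries were kept (12705, holding 99.6% of counts), scaled by TMM from edgeR 4.0.16 and modelled as 6 group means by limma 3.58.1 with voom weights, under R 4.3.3. Means over fractions were log2 CPM (prior count 2) averaged per gradient and tested with limma-trend. Tests were two-sided. Alternatives used edgeR quasi-likelihood, DESeq2 1.42.0, other scalings, no filter, only the groups compared, a replicate block, removal of the trend on coding length, and leaving out each gradient. The methods were tested on simulated counts.

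The members, lists and alternatives were chosen with earlier results of these data known. Genes named besides the 8 were Ddx6, up to 4 per list and direction with the largest called change in translation level and in the mean over fractions, and the 2 most correlated genes per member. A few genes that this rule picks are not reported here. Lif, Jak3, Tyk2 and Esrrb were added after their values were seen. Fractions of one gradient come from one lysate and are paired. Their deviations from group means correlated at -0.173 to 0.464 over 18 pairs.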

Additional observations from a re-analysis of the deposited data

Results flagged for a closer look

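The change in the ratio of high polysome to monosome differed between WT and KO gradients for 2 of the 8 genes by the interaction test in limma. Both were called higher, beside 10.7% of all genes called higher and 7.09% lower in that test. Stat3 gave 1.26 on the log2 scale, higher in 3 of 3 KO gradients than in any WT gradient, and Jak1 gave 1.08, likewise in 3 of 3. The share of all genes with such separation was not counted. The limma call of Jak1 was lost without WT gradient 1 (0.92, adjusted p = 0.0641) and with the coding length trend removed (0.61, adjusted p = 0.118). The cause of the Stat3 or the Jak1 difference was not tested.

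Outside the gene counts, the 92 spike-in sequences held reads in every library, at most 169, although the labels mention no spike-in. Their source was not tested, and they entered no scaling.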

How the results depend on the processing

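Of 80 tests of the 8 genes, 24 gave a call, 14 of these stayed in every alternative run, and none took the other sign. The number of genes called moved by over 1.5 times as follows. An absolute log2 change over 1 left 1 gene for WT high polysome over monosome, 2 for the KO high polysome ratio and 0 for both low polysome ratios and for KO less WT in the monosome, the low polysome and the mean of fractions. With the coding length trend removed there were 3 for the KO high polysome ratio, 0 for KO less WT in the monosome, 2 in the low polysome, 4 in the mean of fractions, and 1 for the KO effect on high polysome over monosome (Stat3). The KO low polysome ratio gave 4 with library size alone, with only the groups compared and with the replicate block (Jak2 and Pim1 joining in the last). KO less WT in the monosome gave 0 with DESeq2 size factors and 2 with only the groups compared (Socs3 joining Socs2). The mean of fractions gave 4 with edgeR, with DESeq2 and with summed counts. Leaving out a gradient gave 0 to 1 in the monosome, 1 to 2 in the low polysome, 1 to 4 in the mean of fractions and 1 to 2 for the KO effect on high polysome over monosome. The coding length fit used the 11772 genes with a coding length. Otherwise the cause of these shifts was not tested.

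Between genotypes a shared replicate number is only a number, since same-numbered WT and KO libraries correlated at -0.485 to 0.243. A replicate block on it called Jak1 in the mean of fractions (0.28, adjusted p = 0.0377) and changed no other genotype call of the 8 genes. Blocking by gradient changed, beside Jak2 and Pim1, the WT high polysome ratio of Lifr. Depth limits Jak2 most, at 4 to 76 counts a library.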
